A study of Homo sapiens with 6 samples.

Results

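The nuclear genes that encode subunits of respiratory complexes II, III and IV and of ATP synthase (complex V) were compared between OFD1-depleted and control cells. The members were chosen by name: 38 genes of the 60666 genes that the table lists on the primary assembly, with 4 in complex II, 9 in complex III, 10 in complex IV and 15 in complex V. All 38 were above the level needed for testing, a mean of at least 1 FPKM (fragments per kilobase of transcript and per unit of sequencing depth) over the 6 samples, which 12025 genes reached.

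Cells were of the hTERT-RPE1 line, human retinal pigment epithelial cells made immortal with telomerase, labelled WT in genotype. All 6 samples carry a hairpin RNA (shRNA) that targets OFD1, delivered by lentivirus and switched on through Tet-On, where OFD1 is a protein of centrioles and centriolar satellites. The control group, 3 samples, had no doxycycline, and the OFD1-depleted group, 3 samples, had 200 ng/mL doxycycline, with 72 h given for both. Doxycycline without the OFD1 hairpin is not among the 6 samples, so the drug, which is also known to act on the mitochondrial ribosome, the hairpin and the loss of OFD1 cannot be told apart. The study describes the replicates as biological, and all come from 1 inducible line. Steady-state mRNA was measured, and less mRNA per cell cannot be told apart from fewer cells that make it. Protein, complex assembly and respiration are not analysed here.

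Complex II (succinate dehydrogenase) oxidizes succinate and passes the electrons to ubiquinone, complex III passes them on to cytochrome c, and complex IV (cytochrome c oxidase) hands them to oxygen. Complexes III and IV pump protons across the inner mitochondrial membrane, and complex V uses the proton gradient to make ATP. Complex II is built from nuclear-encoded proteins alone, while the others combine nuclear-encoded proteins with a few that the mitochondrial genome encodes.

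OFD1 had 3.34, 3.62 and 3.44 FPKM in control replicates 1 to 3 and 0.795, 0.763 and 1.43 FPKM in OFD1-depleted replicates 1 to 3, which is 28.7% of control on average (log2 fold change -1.75, limma adjusted p = 0.00085). Sums of FPKM over all genes ranged from 408302 to 414547 in control and from 433262 to 493510 in OFD1-depleted samples. Depth, estimated from low values was about 37500000 to 44000000 fragments. Over all genes tested, 1429 (11.9%) were lower and 610 (5.07%) higher in OFD1-depleted cells at an adjusted p under 0.05. That split moved to 1988 lower and 268 higher with every sample scaled to the same total (TPM), a scaling that shifted the median log2 fold change of the genes tested by -0.14. It moved to 1311 and 1093 with quantile scaling, to 2263 and 1693 with array weights, and to 1700 and 1340 with scaling by mRNA length. The line's markers KRT7, KRT8, KRT18 and VIM were all at 15.8 FPKM or more. Of 8 markers of differentiated retinal pigment epithelium, 2 (MITF and OTX2) had a mean of at least 1 FPKM, and none of 6 neural retina markers did, with 4 of them listed at 0. BEST1, another of the 8, had 4.33 FPKM in OFD1-depleted replicate 2 and at most 0.0475 FPKM in the other 5 samples, and its part in the results from that sample was not tested. The markers of blood and vessel cells, PTPRC and PECAM1, stayed at or under 0.187 FPKM.

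In the 38 subunit genes, 1 gene fell, 2 rose and 35 did not pass the test. COX7C, a small subunit of complex IV, fell to 13.4% of control. SDHD, a membrane anchor of complex II, rose to 133% of control and UQCRC2, a core protein of complex III, to 140%. The share of members called lower was 1 of 38, where 11.9% of all genes tested were called lower, and the share called higher was 2 of 38, where 5.07% of all genes tested were. At an unadjusted limma p under 0.05 there were 8 members (21.1%), beside 30.6% of all genes tested. The 3 values of the groups did not overlap in 2 members that were lower (COX7C and SDHA, beside 22.3% of all genes tested) and in 6 that were higher (SDHB, SDHD, UQCRC2, ATP5F1B, ATP5F1C and ATP5PF, beside 13.8%).

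**Figure D1:**
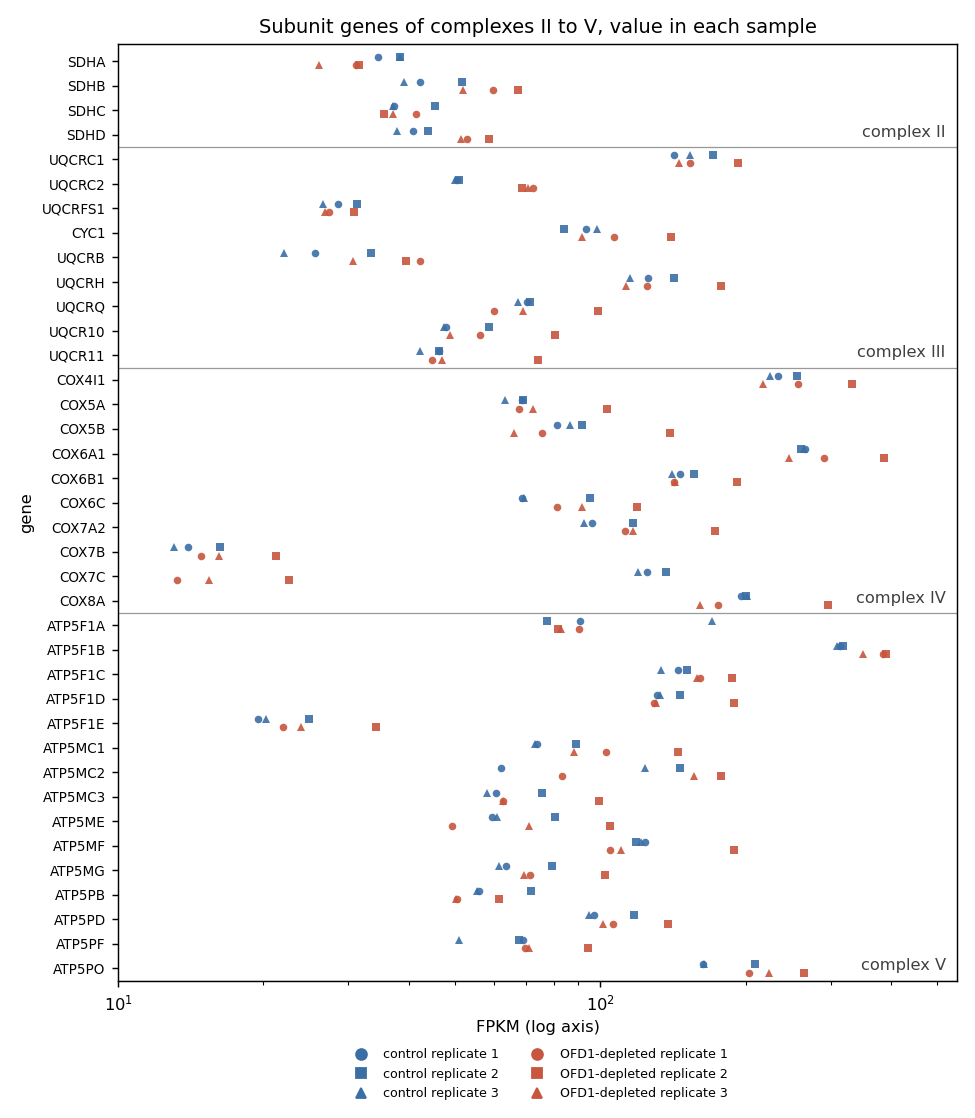
FPKM (log axis) of each of the 38 subunit genes in the 3 control and 3 OFD1-depleted samples, 1 point per sample. COX7C lies between 13.2 and 22.6 FPKM in OFD1-depleted samples and between 120 and 137 FPKM in control samples. In 30 of the 38 genes the highest point is OFD1-depleted replicate 2, beside 2581 of the 12025 genes tested.

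The levels of the subunit genes spanned a wide range. In control samples the means ran from 14.4 FPKM for COX7B to 314 FPKM for ATP5F1B, the catalytic subunit of ATP synthase, with a median of 78.2 FPKM. The median over all genes tested was 8.73 FPKM. Summed over the 38 genes, control replicates 1 to 3 held 3607, 4040 and 3679 FPKM and OFD1-depleted replicates 1 to 3 held 3795, 5144 and 3704 FPKM. In these FPKM, OFD1-depleted replicate 2 stood above the other 5 samples, while OFD1-depleted replicates 1 and 3 lay inside the control range. The sums are not scaled to a common total. Over all genes, OFD1-depleted replicates 1 to 3 summed to 444337, 493510 and 433262 FPKM, and control samples to 408302 to 414547 FPKM. The place of OFD1-depleted replicates 1 and 3 against control therefore depends on the scaling.

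COX7C (ENSG00000127184, GRCh38 chromosome 5 from 86617928 to 86620962, + strand, 3 exons) encodes the small subunit VIIc of cytochrome c oxidase. It had 125, 137 and 120 FPKM in control replicates 1 to 3 and 13.2, 22.6 and 15.4 FPKM in OFD1-depleted replicates 1 to 3. All depleted values lay far below all control values. The means were 127 ± 8.67 and 17.1 ± 4.92 FPKM (SD, n = 3 per group), which is a log2 fold change of -2.93 with a standard error of 0.181 (adjusted p = 8.94e-06 in limma). An exact two-sided permutation test of the FPKM values gave p = 0.1, the smallest that 3 samples against 3 allow. No single sample decided the call: leaving out each in turn gave log2 fold changes from -3.15 to -2.76, with limma adjusted p-values up to 0.000455.

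COX7C also moved against the other complex IV genes within each sample. It stood at 130%, 117% and 130% of the median FPKM of the other 9 complex IV genes in control replicates 1 to 3, and at 11.7%, 13.1% and 13.2% in OFD1-depleted replicates 1 to 3. These ratios do not depend on the scaling between samples, and the groups lay far apart. In every control sample COX7C ranked 5 of the 10 complex IV genes by FPKM, and in the depleted samples it ranked 10, 9 and 10.

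**Figure D2:**
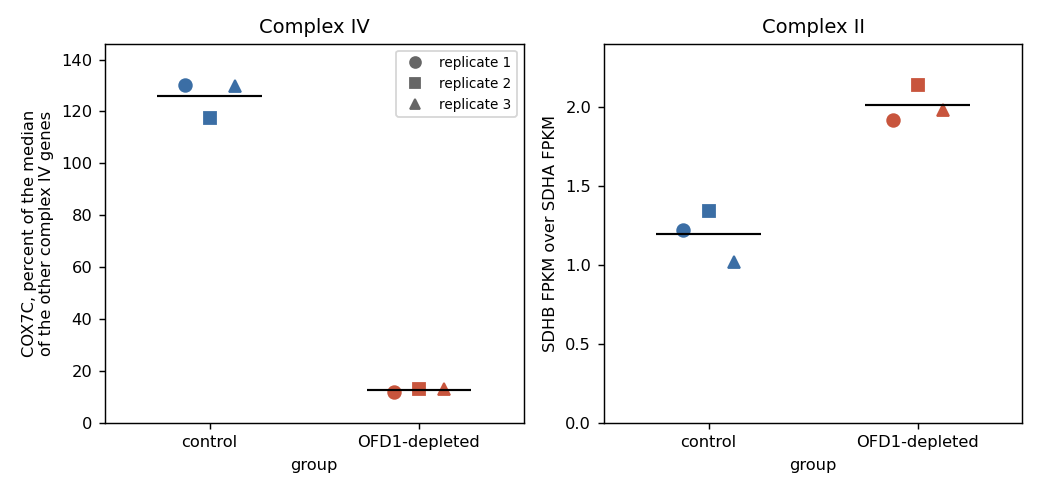
Ratios formed within each sample, 1 point per sample, with the group mean as a bar. COX7C as a percent of the median of the other complex IV genes (left) is 117% to 130% in control and 11.7% to 13.2% in OFD1-depleted samples, and the SDHB to SDHA ratio of FPKM (right) is 1.02 to 1.34 in control and 1.92 to 2.14 in OFD1-depleted samples.

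SDHD (ENSG00000204370, GRCh38 chromosome 11 from 112086824 to 112120016, + strand) encodes a membrane anchor of complex II that helps bind ubiquinone. It had 40.91, 43.95 and 37.81 FPKM in control replicates 1 to 3 and 52.89, 58.61 and 51.26 FPKM in OFD1-depleted replicates 1 to 3. The groups did not overlap. The means were 40.9 ± 3.07 and 54.3 ± 3.86 FPKM (SD, n = 3 per group), with a log2 fold change of 0.41 (standard error 0.125, limma adjusted p = 0.045) and an exact permutation p of 0.1. The adjusted p was above the threshold, up to 0.197 in limma, when any sample other than OFD1-depleted replicate 2 was left out, and 0.15 with TPM scaling.

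UQCRC2 (ENSG00000140740, GRCh38 chromosome 16 from 21953288 to 21983660, + strand) encodes a core protein of complex III. It had 50.31, 50.98 and 50.02 FPKM in control replicates 1 to 3 and 72.31, 68.81 and 70.58 FPKM in OFD1-depleted replicates 1 to 3. The samples within each group lay close together, with a clear gap between the groups. The means were 50.4 ± 0.494 and 70.6 ± 1.75 FPKM (SD, n = 3 per group), with a log2 fold change of 0.48 (standard error 0.114, limma adjusted p = 0.0145) and an exact permutation p of 0.1. The limma adjusted p was 0.0547 without OFD1-depleted replicate 1, 0.0845 without control replicate 1, 0.0706 without control replicate 3 and 0.0711 with TPM scaling, while the log2 fold change stayed between 0.47 and 0.50 whichever sample was left out.

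Promoters of respiratory genes are known for sites of nuclear respiratory factor 1 (NRF1), of the ETS factor GABPA (also called nuclear respiratory factor 2) and of YY1. The 150 bases before the RefSeq start of the 3 genes past the threshold (GRCh38.p14, + strand) are shown because these 3 passed the test. Capitals mark matches, on either strand, to GCGCANGCG for NRF1 and CCGGAAG for GABPA, where N is any base. The printed bases lie at chr5:86617791-86617940 for COX7C, chr11:112086723-112086872 for SDHD and chr16:21953211-21953360 for UQCRC2. In all 3 genes the RefSeq start lies after the gene start given above, so the last bases printed fall inside that gene span.
COX7C: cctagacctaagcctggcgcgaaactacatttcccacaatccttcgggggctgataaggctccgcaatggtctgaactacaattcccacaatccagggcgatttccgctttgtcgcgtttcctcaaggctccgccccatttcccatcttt
SDHD: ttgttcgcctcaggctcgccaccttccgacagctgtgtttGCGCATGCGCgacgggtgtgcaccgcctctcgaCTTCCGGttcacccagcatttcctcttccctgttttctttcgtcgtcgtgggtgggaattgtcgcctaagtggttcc
UQCRC2: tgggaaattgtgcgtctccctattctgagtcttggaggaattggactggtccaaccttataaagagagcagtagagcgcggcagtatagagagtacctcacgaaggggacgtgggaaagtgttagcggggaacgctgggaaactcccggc
In SDHD, overlapping NRF1 matches on the 2 strands start 110 and 109 bases before the RefSeq start, and a GABPA match starts 77 bases before it. COX7C and UQCRC2 hold none of the 3 motifs, with AAGATGGC as the letters for YY1, in the window from 250 bases before to 50 after the start, which says only that these letters are not there.

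Over the members, the same window was found in RefSeq for 30 of 38 genes. The NRF1 letters were in 12 of the 30 promoters (40%), beside 18.3% of the promoters of all genes tested and 7.52% of all RefSeq promoters. The GABPA letters were in 15 (50%), beside 24% and 10.3%, and the YY1 letters in 5 (16.7%), beside 7.07% and 2.89%. In all, 23 of the 30 promoters held at least 1 of the 3 motifs, 5 held both NRF1 and GABPA, and 7 held none. These are matches of letters and not measured sites.

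**Figure D3:**
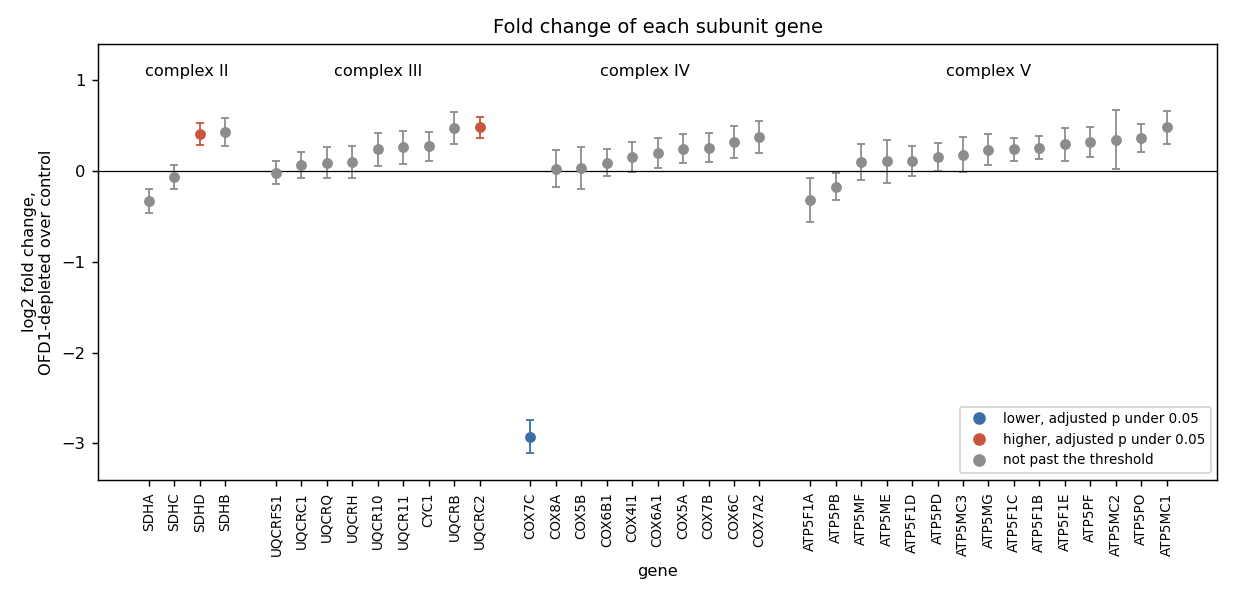
Log2 fold change (OFD1-depleted over control, on log2(FPKM + 0.1)) of each subunit gene by complex, with bars of 1 standard error. COX7C is at -2.93, and the other 37 genes lie between -0.33 and 0.48, of which SDHD and UQCRC2 are past the threshold.

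In complex II, SDHD rose and the other 3 genes did not pass the test. The log2 fold changes were -0.33 for SDHA, the flavoprotein that oxidizes succinate, 0.43 for SDHB, the iron-sulfur protein, -0.06 for SDHC, a membrane anchor, and 0.41 for SDHD. SDHA had 34.6, 38.3 and 38.4 FPKM in control replicates 1 to 3 and 31.2, 31.5 and 26.1 FPKM in OFD1-depleted replicates 1 to 3. SDHA values of the groups did not overlap, yet its limma adjusted p was 0.107. It passed the threshold without OFD1-depleted replicate 2 (0.0451), with array weights (0.0298), with TPM scaling (0.0195) and with a total that leaves out mitochondrially encoded genes (0.0431). SDHB had 42.2, 51.5 and 39.1 FPKM in control and 59.7, 67.5 and 51.7 FPKM in OFD1-depleted replicates 1 to 3. Its depleted values all lay above its control values, by a small margin (limma adjusted p = 0.0721). SDHC values of the groups overlapped (limma adjusted p = 0.791). The SDHB to SDHA ratio of FPKM was 1.22, 1.34 and 1.02 in control replicates 1 to 3 and 1.92, 2.14 and 1.98 in OFD1-depleted replicates 1 to 3. Every depleted sample was thus higher than every control sample in this ratio, which was formed after the values were seen and has no test.

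In complex III, UQCRC2 rose and the other 8 genes did not pass the test, with log2 fold changes from -0.02 to 0.48. The other core protein, UQCRC1, had 142, 171 and 154 FPKM in control and 154, 193 and 145 FPKM in OFD1-depleted replicates 1 to 3, so its groups overlapped (log2 fold change 0.07, limma adjusted p = 0.795). The subunits that carry electrons are the Rieske iron-sulfur protein UQCRFS1, at -0.02, and cytochrome c1, encoded by CYC1, at 0.27. UQCRFS1 had 28.6, 31.2 and 26.6 FPKM in control and 27.4, 30.9 and 26.8 FPKM in OFD1-depleted replicates 1 to 3, nearly the same range. CYC1 reached 140 FPKM in OFD1-depleted replicate 2, while the other 5 samples lay between 84.1 and 107 FPKM. Among the small supernumerary subunits, UQCRB, a protein near the ubiquinone pocket, was at 0.48 (limma adjusted p = 0.0891), with 25.6, 33.4 and 22.1 FPKM in control and 42.3, 39.5 and 30.6 FPKM in OFD1-depleted replicates 1 to 3. The groups of UQCRB overlapped by the value of control replicate 2. UQCRH, UQCRQ, UQCR10 and UQCR11 were at 0.10, 0.09, 0.24 and 0.26, and in each the highest of the 6 samples was OFD1-depleted replicate 2.

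In complex IV, the 9 nuclear genes other than COX7C had log2 fold changes from 0.03 to 0.38, and none passed the test. None had an unadjusted limma p under 0.05 either. COX4I1, the largest of the nuclear-encoded subunits and a site of regulation by nucleotides, had 233, 255 and 224 FPKM in control and 257, 332 and 217 FPKM in OFD1-depleted replicates 1 to 3. Its groups overlapped, and its log2 fold change was 0.16. COX5A and COX5B, at 0.25 and 0.04, COX6A1, COX6B1 and COX6C, at 0.20, 0.09 and 0.32, and COX7A2, COX7B and COX8A, at 0.38, 0.26 and 0.03, are supernumerary subunits around the catalytic core that the mitochondrial genome encodes. COX7A2 had the lowest limma adjusted p of these 9 (0.175), with 96.0, 117 and 92.5 FPKM in control and 113, 173 and 117 FPKM in OFD1-depleted replicates 1 to 3. In all 9 of these genes OFD1-depleted replicate 2 was the highest of the 6 samples, beside 2581 of the 12025 genes tested. COX5B showed it most plainly, with 139 FPKM in that sample and 66.1 to 91.5 FPKM in the other 5.

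In complex V no gene passed the test in either direction, and 2 of 15 (13.3%) had an unadjusted limma p under 0.05, beside 30.6% of all genes tested. In the F1 part, which holds the catalytic sites, ATP5F1B had 313, 319 and 309 FPKM in control and 385, 391 and 351 FPKM in OFD1-depleted replicates 1 to 3. These groups did not overlap (log2 fold change 0.26, limma adjusted p = 0.194). ATP5F1A, the other subunit of the F1 head, had 90.6, 77.4 and 170 FPKM in control and 90.3, 81.7 and 83.0 FPKM in OFD1-depleted replicates 1 to 3. Control replicate 3 was high in ATP5F1A, and its log2 fold change was -0.32 (limma adjusted p = 0.406) with this sample and 0.02 without it. The central stalk genes ATP5F1C, ATP5F1D and ATP5F1E were at 0.24, 0.11 and 0.29. Among the peripheral stalk genes, ATP5PO (0.37, limma adjusted p = 0.129), ATP5PF (0.32) and ATP5PD (0.15) lay above 0 and ATP5PB (-0.17) below. The membrane subunits ATP5ME, ATP5MF and ATP5MG were at 0.11, 0.10 and 0.24.

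The membrane ring of ATP synthase that turns with the proton flow is made of the c subunit, whose identical mature protein comes from the 3 genes ATP5MC1, ATP5MC2 and ATP5MC3. ATP5MC1 had the largest log2 fold change of complex V, 0.48 (limma adjusted p = 0.0908), with 73.9, 88.8 and 73.1 FPKM in control and 103, 145 and 87.9 FPKM in OFD1-depleted replicates 1 to 3. The groups of ATP5MC1 came near each other but overlapped by control replicate 2. ATP5MC2 differed more between replicates than between groups, with 62.1, 146 and 124 FPKM in control and 83.2, 177 and 156 FPKM in OFD1-depleted replicates 1 to 3 (log2 fold change 0.35, limma adjusted p = 0.516). ATP5MC3 was at 0.18. As a share of the summed FPKM of the 3 genes, ATP5MC1 made up 37.6%, 28.6% and 28.7% in control and 41.3%, 34.3% and 28.7% in OFD1-depleted replicates 1 to 3. ATP5MC2 made up 31.6%, 47.1% and 48.5% in control and 33.5%, 42.1% and 50.9% in OFD1-depleted samples. The groups overlapped in both shares, and replicate 1 of each group had the lowest ATP5MC2 share.

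By complex, the median log2 fold change was 0.17 in complex II, 0.24 in complex III, 0.18 in complex IV and 0.24 in complex V, beside -0.03 over all genes tested. Over all 38 members the median was 0.22, and 32 members were above 0 and 6 below. The median over the members followed the replicates. Set against the control mean, it was 0.04 in OFD1-depleted replicate 1, 0.56 in replicate 2 and -0.01 in replicate 3, where all genes tested had medians of 0.04, -0.09 and -0.08. Without OFD1-depleted replicate 2 the median over the members was 0.03, and the medians of complexes II to V were 0.16, 0.03, 0.01 and 0.06. Complexes III, IV and V lost most of their median without this sample, while that of complex II moved by less. With TPM scaling the member median was 0.07, beside -0.18 for all genes tested.

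The mRNAs of the members are short, and mRNA length moved with the values of all 3 OFD1-depleted samples and, by less, of control replicate 2. The median length of the canonical transcript was 1058 bases over the members, 303 to 8459 bases in range, and 3040 bases over the genes tested that have one. Of the 38 members, 18 were under 1000 bases. These are annotated lengths, and which transcript of each gene the cells express was not tested. In OFD1-depleted replicate 2, the median deviation from the mean of its group was 0.26 on the log2 scale for the 1357 tested genes under 1000 bases and -0.24 for the 4320 genes over 4000 bases. For the members it was 0.33. In OFD1-depleted replicates 1 and 3 the short genes stood at -0.10 and -0.16 and the members at -0.14 and -0.15. The genes over 4000 bases stood at 0.18 and 0.06 there, the opposite direction to replicate 2. Deviations are taken from the mean of the same 3 samples, so those of replicates 1 and 3 are tied to those of replicate 2. Control replicate 2 had 0.10 for the short genes, 0.001 for those over 4000 bases and 0.12 for the members. In control replicates 1 and 3 the short genes stood at -0.05 and -0.05 and the members at -0.06 and -0.09. Scaling within bins of mRNA length gave the members a median log2 fold change of 0.13, and COX7C (-3.03), UQCRC2 (0.45) and SDHD (0.35) stayed past the threshold under it. SDHB (limma adjusted p = 0.0279) and ATP5MC1 (0.0179) then passed as well.

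**Figure D4:**
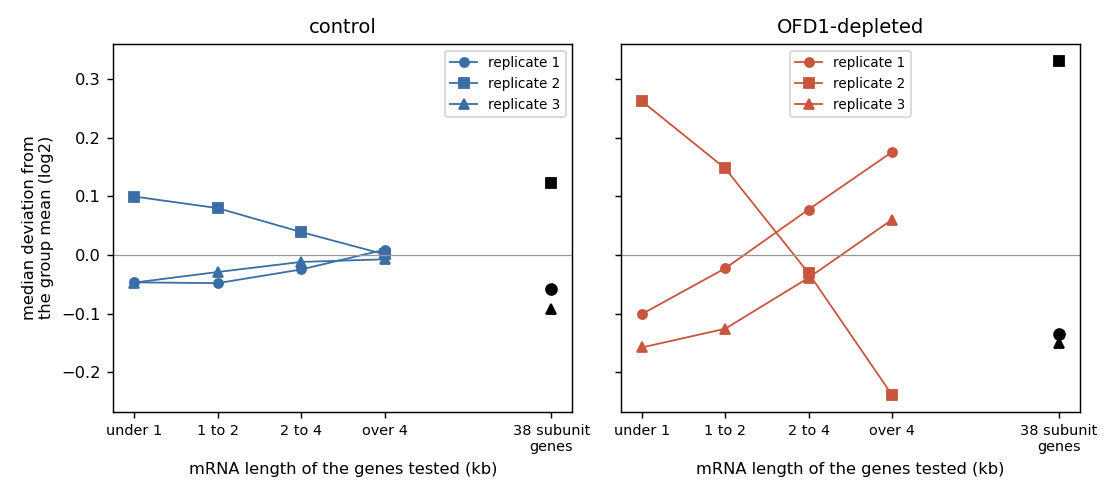
Median deviation of each sample from its group mean (log2) for all genes tested in 4 bins of mRNA length, and in black for the 38 subunit genes. OFD1-depleted replicate 2 falls from 0.26 in the shortest bin to -0.24 in the longest and has the subunit genes at 0.33. OFD1-depleted replicates 1 and 3 rise, from -0.10 to 0.18 and from -0.16 to 0.06. The control samples lie between -0.05 and 0.10 in all bins. Control replicate 2 falls from 0.10 in the shortest bin to 0.001 in the longest and has the subunit genes at 0.12.

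Near-identical copies and overlapping genes touched few values. Summing each member with its named pseudogenes, or with overlapping genes on its strand, changed no call and moved no log2 fold change by more than 0.03 (UQCRFS1). The largest share that pseudogenes took of such a sum was 10.7%, in SDHA. A gene on the other strand with a value above 0 overlapped 14 members, but not COX7C, SDHD or UQCRC2. It reached 10% of the member's own level in 2 of them, ATP5PB and ATP5MF, and the strand setting of the counting is not given in the sources used here.

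Of 14 further subunits and tissue isoforms of complexes III to V, 7 were tested, and 1 rose, where 5.07% of all genes tested rose. NDUFA4, once counted with complex I and now known as a subunit of complex IV, had 53.3, 52.9 and 53.9 FPKM in control and 67.4, 90.2 and 72.9 FPKM in OFD1-depleted replicates 1 to 3. Its groups did not overlap (log2 fold change 0.51, standard error 0.136, limma adjusted p = 0.0254). Without control replicate 1, 2 or 3 its limma adjusted p was 0.0978, 0.0662 and 0.0865. It was 0.0528 with TPM scaling, 0.0521 without the variance trend and 0.0833 with no filter. COX7A2L, which links complexes III and IV, was at 0.43 (limma adjusted p = 0.0507). DMAC2L, ATP5MPL, ATP5MD and UQCRHL were at 0.41, 0.37, 0.34 and 0.34, and ATP5IF1, the inhibitor of ATP hydrolysis, at -0.12. Without OFD1-depleted replicate 2, ATP5IF1 was at -0.47 and passed the test as lower (limma adjusted p = 0.0101). The heart and muscle isoforms COX6A2 and COX7A1, the lung isoform COX4I2, and the testis isoforms COX7B2 and COX8C were listed at 0 in all samples. The testis isoform COX6B2 was at or under 0.0464 FPKM, and NDUFA4L2, a relative of NDUFA4, had 0.293, 0.134 and 0.102 FPKM in control and 1.06, 0.887 and 0.201 FPKM in OFD1-depleted replicates 1 to 3, so neither was tested. These isoforms under 1 FPKM were named after their values were seen. CYCS, cytochrome c, which carries electrons from complex III to complex IV, was at 0.32 (limma adjusted p = 0.165).

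The mitochondrial genome encodes the remaining subunits of complexes III to V. Of these 6 genes, 5 rose, where 5.07% of all genes tested rose. Their median log2 fold change was 0.82, and MT-CO1 was at 0.57 (limma adjusted p = 0.104). With TPM scaling the median was 0.67, beside 0.07 for the nuclear-encoded members, and with mRNA length bins it was 0.72, beside 0.13. With quantile scaling the median became 0.28, beside 0.15 for the nuclear-encoded members under that scaling. Quantile scaling gives equal ranks the same value in every sample, so it can take away a joint rise of the most abundant genes. MT-CO1 had the highest control mean of all genes tested. MT-CO2, a catalytic subunit of complex IV, had 7293, 5788 and 8007 FPKM in control and 11237, 12485 and 13327 FPKM in OFD1-depleted replicates 1 to 3. All depleted samples were above all control samples (log2 fold change 0.82, limma adjusted p = 0.017). The count of 5 became 0 without OFD1-depleted replicate 3, 3 without OFD1-depleted replicate 1 or control replicate 1 or 3, 0 with no filter and 1 with quantile scaling. Mitochondrially encoded genes took 8.66% to 13.8% of the summed FPKM in control and 15.6% to 19.3% in OFD1-depleted samples. With totals that leave these genes out, COX7C (-2.98) and UQCRC2 (0.42) stayed past the threshold and SDHD (0.35, limma adjusted p = 0.052) did not. Whether the difference between mitochondrially and nuclear-encoded subunits exceeds the replicate spread was not tested.

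**Figure D5:**
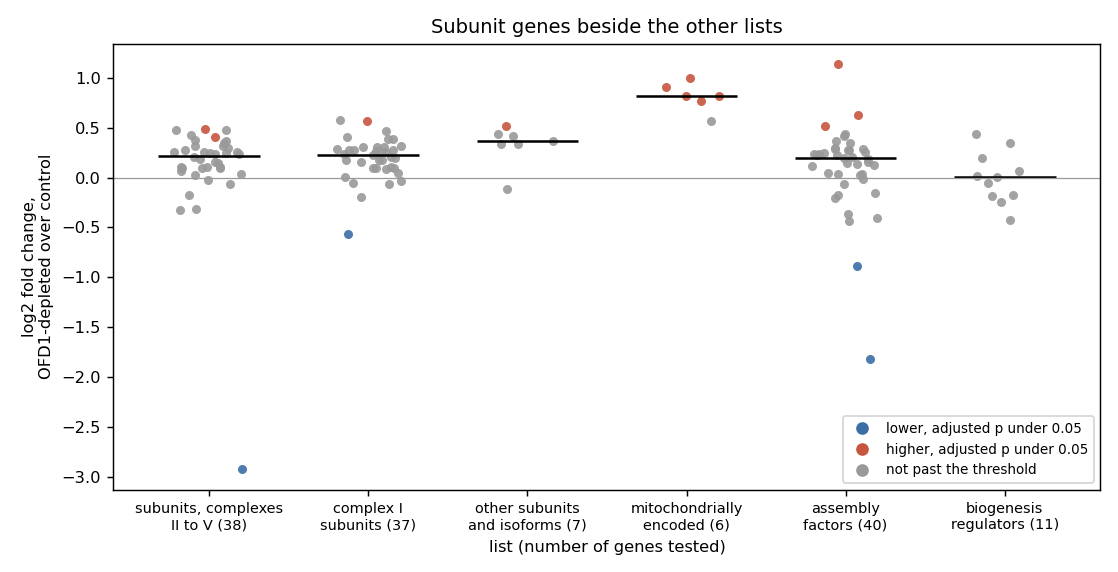
Log2 fold changes (OFD1-depleted over control) of the genes tested in 6 lists, 1 point per gene, with the list median as a bar. The medians are 0.22 for the 38 subunits of complexes II to V, 0.23 for 37 complex I subunits, 0.37 for 7 other subunits and isoforms, 0.82 for 6 mitochondrially encoded subunits, 0.19 for 40 assembly factors and 0.01 for 11 biogenesis regulators.

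Assembly factors help build the complexes without being part of them. Of 40 tested, 2 fell, 3 rose and 35 did not pass the test, with a median log2 fold change of 0.19. Over all genes tested 11.9% fell and 5.07% rose. TACO1, which activates the translation of MT-CO1 on the mitochondrial ribosome, had 19.5, 18.6 and 17.6 FPKM in control and 4.64, 5.98 and 5.07 FPKM in OFD1-depleted replicates 1 to 3. The groups of TACO1 lay far apart (log2 fold change -1.82, standard error 0.14, limma adjusted p = 1.88e-05). SCO2, a copper chaperone of complex IV, had 4.71, 5.51 and 9.98 FPKM in control and 12.8, 18.6 and 11.9 FPKM in OFD1-depleted replicates 1 to 3 (log2 fold change 1.14, limma adjusted p = 0.0122). SDHAF3, which helps SDHB to mature with its iron-sulfur clusters, rose, with a log2 fold change of 0.62 (adjusted p = 0.0206 in limma). The others past the threshold, named after their values were seen, were COX20 (0.52), a chaperone of MT-CO2, and LYRM7 (-0.89), which hands the Rieske protein to complex III. TACO1 passed whichever sample was left out (limma adjusted p up to 0.000665), while the adjusted p reached 0.0617 for SCO2 without control replicate 2, 0.115 for SDHAF3 and 0.16 for COX20 without control replicate 1, and 0.112 for LYRM7 without control replicate 2.

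Regulators of mitochondrial biogenesis did not pass the test in either direction in limma. Of 14 listed, 11 were tested, and their median was 0.01. The 3 with an unadjusted p under 0.05 (27.3%, beside 30.6% of all genes tested) were TFB2M, a transcription factor of mitochondrial DNA, at 0.43 (limma adjusted p = 0.065, and 0.0477 without OFD1-depleted replicate 2), ESRRA, a nuclear receptor that acts on respiratory genes, at 0.35 (0.134), and NRF1 itself at -0.43 (0.158). Among the 11 tested, the groups did not overlap in 1 gene that was lower (NRF1, beside 22.3% of all genes tested). They did not overlap in 3 that were higher (TFB2M, ESRRA and POLRMT, a gene of mitochondrial DNA transcription, beside 13.8%). GABPB2, a partner of GABPA, had 1.07, 1.03 and 0.914 FPKM in control and 0.345, 0.311 and 0.312 FPKM in OFD1-depleted replicates 1 to 3, and its mean was too low for testing. GABPA was at -0.18, YY1 at 0.02 and TFAM, which packs and transcribes mitochondrial DNA, at 0.01. PPARGC1A, the coactivator known for driving respiratory genes in muscle and fat, was listed at 0 in all samples. The regulators were named after their values were seen.

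The nuclear-encoded subunits of complex I were set beside the members. Of 37 tested, 1 fell (NDUFB8, -0.56) and 1 rose (NDUFA7, 0.57), beside 11.9% and 5.07% of all genes tested. The median was 0.23, or 0.06 without OFD1-depleted replicate 2. NDUFB8 passed in no fit that left out a sample other than OFD1-depleted replicate 2, and the limma adjusted p of NDUFA7 reached 0.117 without control replicate 3. OFD1-depleted replicate 2 was the highest of the 6 samples in 33 of the 37, as it was in 30 of the 38 subunit genes of complexes II to V. Over all genes tested it was the highest in 2581 of 12025.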

How the data were processed

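Reads were paired-end. The authors used HISAT2 (version 2.0.5 in the submitters' processing notes) to align them to GRCh38, and deposited 1 table of FPKM per gene and sample made with StringTie. FPKM is already divided by depth and length, the table holds no read counts, and depth was estimated only roughly (15.6% to 20.5% of low single-exon values lay on whole multiples of a step, within 2% of it). The labels mention the NEBNext directional kit and also a TruSeq kit and retinas, while the samples are cells.

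All genes whose mean reached 1 FPKM were fitted on log2(FPKM + 0.1) with limma 3.58.1 (R 4.3.3, variance trend, two-sided, Benjamini-Hochberg over 12025 genes, threshold 0.05), after a check on simulated data. A fold change on this scale understates that of low genes. Exact permutation tests and summaries used Python 3.11.15 with scipy 1.17.1. mRNA lengths came from GENCODE 44 and promoters from RefSeq.

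The members and lists were chosen with earlier results of these data known. All members are named. Of other nuclear lists, the 3 genes with the smallest p among those past the threshold are named, and of the other subunits and isoforms those whose mean reached 1 FPKM. Names outside this rule are marked as chosen after their values were seen. Alternatives covered pseudocount, filter, scaling, variance model, copies, replicate block and each sample left out. Scaling within 20 bins of mRNA length was added after seeing the data.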

Additional observations from a re-analysis of the deposited data

How the results depend on the processing

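COX7C was lower at an adjusted p under 0.05 in all 21 alternatives, with log2 fold changes from -3.15 to -2.76. For the members alone, 719 values kept their direction and side of the threshold and 47 changed sign, all in genes that did not pass the test. Another 19 values passed the threshold only under the alternative. The call was lost in 13, all in SDHD and UQCRC2. Over all genes tested, deviations from the group mean correlated at 0.0579, 0.0481 and 0.011 between control and OFD1-depleted samples of the same replicate number. Samples of different numbers correlated at -0.0799 to 0.0503. In the members, replicate 2 stood highest within both groups, with median deviations of 0.123 in control and 0.332 in OFD1-depleted samples. Whether the numbers mark pairs was not tested. With the number as a block, 5 members were called higher (SDHB, SDHD, UQCRC2, UQCRB and ATP5MC1), 2 in complex II, 2 in complex III and 1 in complex V.

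The count of members called higher, 2, became 6 with array weights, 4 with mRNA length bins and with quantile scaling, 1 without the variance trend, with no filter and with totals without mitochondrial genes, and 0 with TPM. The count called lower, 1, became 2 with array weights, TPM and totals without mitochondrial genes, where SDHA was added. In complex II, 2 were called higher with array weights, length bins, median-of-ratios and quantile scaling and 0 without the trend, with no filter, with TPM and with totals without mitochondrial genes, 1 was called lower with array weights, TPM and those totals, and the median was 0.0252 with TPM. In complex III, 2 were called higher with array weights and quantile scaling and 0 with TPM. In complex V, 2 were called higher with array weights and 1 with length bins. Leaving out 1 sample gave 0 to 3 members higher and 1 to 2 lower, 0 to 1 higher and 0 to 1 lower in complex II, 0 to 2 higher in complex III and 0 to 1 higher in complex V. Over all genes tested the alternatives gave 823 to 2263 lower and 244 to 1693 higher, beside 1429 and 610. Over them, 1 to 5 assembly factors were lower (beside 2) and 0 to 8 higher (beside 3), 0 to 3 complex I genes lower (beside 1) and 0 to 9 higher (beside 1), 0 to 6 mitochondrially encoded genes higher (beside 5), 0 to 1 other subunits lower (beside 0) and 0 to 4 higher (beside 1) and 0 to 2 regulators higher (beside 0). No member was called higher without OFD1-depleted replicate 1, control replicate 1 or control replicate 3.

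Signs changed with array weights for SDHC (0.0278), UQCRH (-0.0282), UQCRQ (-0.061), COX5B (-0.175), COX6B1 (-0.0013), COX8A (-0.178) and ATP5MF (-0.121). With length bins they changed for UQCRFS1 (0.0468), UQCRH (-0.0962), COX5B (-0.0677), COX6B1 (-0.0997), COX8A (-0.167), ATP5ME (-0.0874), ATP5MF (-0.0917) and ATP5PD (-0.0425). UQCRFS1 was at 0.0312 with median-of-ratios and 0.00273 with quantile scaling, where COX8A was at -0.0721. With TPM the signs changed for UQCRC1 (-0.0784), UQCRH (-0.0496), UQCRQ (-0.0552), COX5B (-0.109), COX6B1 (-0.053), COX8A (-0.12), ATP5F1D (-0.0372), ATP5ME (-0.0407) and ATP5MF (-0.0451), and with totals without mitochondrial genes for COX5B (-0.0208) and COX8A (-0.0322). Leaving out 1 sample gave ranges across 0 for UQCRC1 (-0.0536 to 0.149), UQCRH (-0.0956 to 0.23), UQCRQ (-0.114 to 0.244), UQCRFS1 (-0.0832 to 0.0387), SDHC (-0.126 to 0.0322), COX4I1 (-0.00644 to 0.3), COX5B (-0.288 to 0.249), COX6B1 (-0.0509 to 0.168), COX8A (-0.246 to 0.196), ATP5F1A (-0.547 to 0.021), ATP5F1D (-0.072 to 0.203), ATP5MC2 (-0.0257 to 0.678), ATP5MC3 (-0.0394 to 0.298), ATP5ME (-0.167 to 0.375), ATP5MF (-0.171 to 0.257) and ATP5IF1 (-0.47 to 0.0933). The cause was not tested.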
